A study of Mus musculus with 6 samples.

Results

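The 10 genes described here encode secreted factors that act on blood and lymph vessels. They are the angiopoietins Angpt1, Angpt2 and Angpt4, the angiopoietin-like genes Angptl2, Angptl4 and Angptl7, the growth factor genes Vegfa, Vegfb and Vegfc, and Esm1. They were taken by name from the platform's probe annotation, in which 9 of the 10 have a probe, with 13 of the array's 25697 probes and among 16593 named genes. Angptl2 was not analysed here. The set was selected on the signal difference between the cell types on these same 6 arrays, so that difference is given for each member as a description, with no test.

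The study set osteoblasts of the skull vault against cementoblasts, the cells that lay down mineral on the tooth root. Cells were sorted from OC-GFP mice, which carry a green fluorescent reporter named for osteocalcin, on a C57Bl6/J background and of mixed sex. Each sample pooled several animals and was hybridised to 1 Illumina bead array. The osteoblast pools 1, 2 and 3 came from calvaria of 6 mice each, aged 6, 5 to 6 and 6 to 7 weeks, and the cementoblast pools 1, 2 and 3 from extracted molars of 7, 10 and 6 mice, aged 6 to 7, 5 to 6 and 6 to 7 weeks. All 6 pools share the reporter and the sort for it, and an early fraction of the digest was discarded for calvaria only. The labels do not say whether the pools were prepared on separate days. Every SD given measures the spread between pools. The SEs and intervals rest on that spread after limma moderated it with the variances of all tested genes.

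Angiopoietins bind the receptor tyrosine kinase Tie2, encoded by Tek, on endothelial cells. Angpt1 activates Tie2 and steadies vessels, whereas Angpt2 acts against it in many settings and loosens the vessel wall. Vegf ligands act through the receptors Flt1, Kdr and Flt4, with Vegfa as the main growth factor of blood vessels and Vegfc of lymph vessels, and in bone Vegfa from osteoblast lineage cells ties vessel growth to bone formation.

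Signals are log2 values after background correction and quantile normalization. A gene was called detected where its detection p against the negative control beads was under 0.05. The lowest detected signal lay between 4.37 and 5.11 on the 6 arrays, and 8480 to 13347 probes were detected on each. Of 10 osteoblast lineage markers, 9 or 10 were detected in every pool. Markers of other cells were uneven. Of 13 endothelial genes on the array, 4, 10 and 11 were detected in osteoblast pools 1, 2 and 3, and 11, 10 and 2 in the cementoblast pools. Of 10 genes of the oral epithelium, 9 and 8 were detected in cementoblast pools 1 and 2, 0 in cementoblast pool 3, and 0, 2 and 0 in the osteoblast pools. Neutrophil genes, of which 9 of 10 were detected in every pool, averaged 6.66 in osteoblast pool 1 and up to 9.51 in the other osteoblast pools, against 11.06, 9.63 and 7.62 in the cementoblast pools. Macrophage and osteoclast genes averaged 6.00, 8.45 and 7.63 in osteoblasts, then 8.31, 7.49 and 6.15 in cementoblasts. Both lists were lowest within their group in osteoblast pool 1 and cementoblast pool 3. By its epithelial and endothelial markers, cementoblast pool 3 stood apart from the other cementoblast pools, and the differences of members, receptors and endothelial markers that turn on it are given with and without it.

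A gene was tested where it was detected in at least 3 of 6 pools, which left 8 members among 8111 genes. In the limma fit across all of them, 0.321% of genes passed at an adjusted p under 0.05, 0.173% lower and 0.148% higher in cementoblasts. Of the 8 members, 1 (Angpt2) was counted there on the lower side and 0 on the higher side, which is a count and no test of Angpt2. The groups did not overlap for 2 of the 8, Angpt2 and Esm1, both lower in cementoblasts; this held for 11.3% of all genes, and for 5.57% on the lower side. Angpt2, Esm1 and Angpt4, 3 of the 8, differed by at least 1 on the log2 scale, as did 5.60% of all genes. Nothing is read from these shares, because the same contrast was used to pick the genes.

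**Figure D1:**
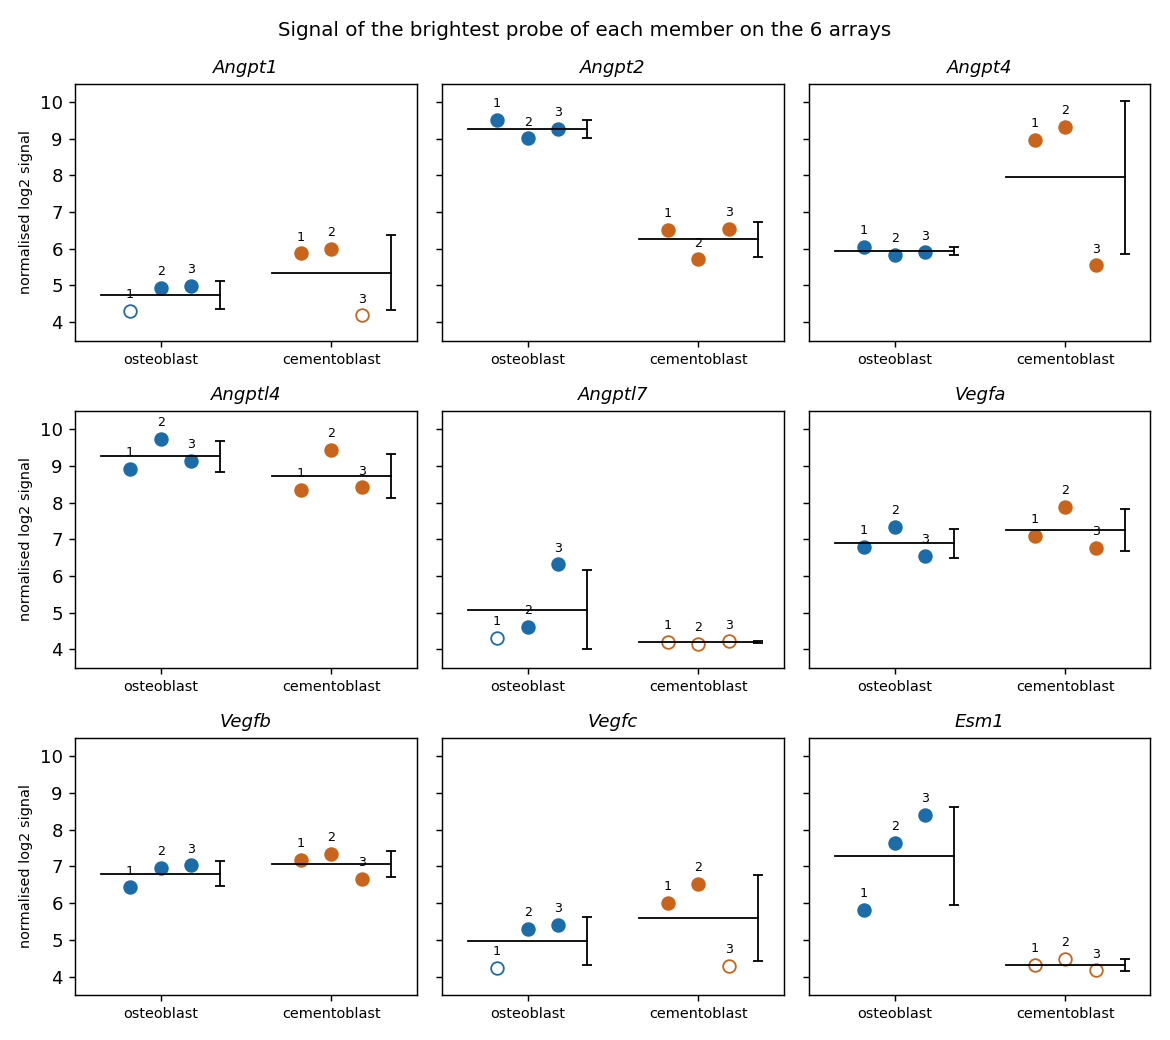
Normalised log2 signal (y axis) of 1 probe for each of the 9 measured members in the osteoblast and cementoblast pools; the number beside a point is the replicate, an open point was not detected, the line is the group mean and the bar its SD (n = 3). The groups do not overlap for Angpt2, Esm1 and the dim Angptl7, while Angpt1, Angpt4 and Vegfc are high in cementoblast pools 1 and 2 and low in pool 3.

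Angpt2, the context-dependent antagonist of Tie2, was detected everywhere and was bright in osteoblasts. The osteoblast pools 1, 2 and 3 gave log2 signals of 9.51, 9.01 and 9.27, whereas the cementoblast pools 1, 2 and 3 gave 6.52, 5.71 and 6.55. The lowest osteoblast value lay above the highest cementoblast value. Means were 9.26 ± 0.25 for osteoblasts and 6.26 ± 0.48 for cementoblasts (SD, n = 3 per group). That difference of -3.00 (SE 0.31) is an 8.02-fold lower signal in cementoblasts, with a 95% interval of 4.87 to 13.2. Some titles share a number between the groups, and within those pairs Angpt2 differed by -3.30 (number 28) and -2.72 (number 4). The other Angpt2 probe was dim, detected at 5.12 and 5.15 in osteoblast pools 2 and 3 and in no other pool. Angpt2 dropped out of the count of genes past the threshold when any 1 pool other than cementoblast pool 3 was left out.

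Angpt1, the activating Tie2 ligand, was dim. It stood at 4.30, 4.93 and 4.98 in osteoblast pools 1, 2 and 3 and at 5.87, 6.00 and 4.18 in the cementoblast pools. It was not detected in osteoblast pool 1 or cementoblast pool 3, and the groups overlapped. The difference was 0.62 (95% interval -0.54 to 1.77). Leaving out cementoblast pool 3 made it 1.26, and setting that pool alone against the osteoblasts made it -0.69. It was 0.37 without cementoblast pool 1 and 0.30 without cementoblast pool 2. The other Angpt1 probe was below detection in all 6 pools.

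Angpt4, a further Tie2 ligand, was detected in every pool and varied most among the cementoblasts. Osteoblast pools 1, 2 and 3 gave 6.05, 5.84 and 5.90, close to one another. Cementoblast pools 1 and 2 gave 8.98 and 9.32, but pool 3 gave 5.55, under every osteoblast pool. Means were 5.93 ± 0.11 for osteoblasts and 7.95 ± 2.09 for cementoblasts (SD, n = 3 per group), with a difference of 2.02 (95% interval -0.05 to 4.09). The difference was 3.24 when cementoblast pool 3 was left out and -0.42 when it stood alone, and 1.34 without cementoblast pool 2, so its sign rests on cementoblast pools 1 and 2.

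Angptl4, which inhibits lipoprotein lipase, was detected in every pool. It gave 8.92, 9.72 and 9.14 in osteoblast pools 1, 2 and 3, and 8.34, 9.43 and 8.41 in the cementoblast pools, with overlapping groups. The difference was -0.53 (95% interval -1.40 to 0.34), and -1.01 with each array scaled to its 75th percentile. It ran from -0.88 without cementoblast pool 2 to -0.29 without osteoblast pool 2, with -0.34 without cementoblast pool 1, and was -0.85 with cementoblast pool 3 alone. Angptl7, another secreted protein of the family, was detected in osteoblast pools 2 and 3, at 4.62 and 6.31. It was below detection in osteoblast pool 1 and in the 3 cementoblast pools, at 4.20, 4.16 and 4.21 in the latter, and was therefore not tested. Its groups did not overlap, with osteoblast pool 1 at 4.31, but only 2 of 6 values were above background.

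Vegfa was detected in every pool. Its values were 6.80, 7.33 and 6.54 in osteoblast pools 1, 2 and 3, and 7.10, 7.89 and 6.77 in the cementoblast pools, so the groups overlapped. The difference was 0.36 (95% interval -0.48 to 1.20), and -0.03 with each array scaled to its 75th percentile. It was 0.57 and 0.18 without osteoblast pools 2 and 3, 0.05 and 0.61 without cementoblast pools 2 and 3, and -0.12 with cementoblast pool 3 alone. Another probe of Vegfa differed by 0.36, and a further one was below detection in all 6 pools. Vegfa and Angptl4 both peaked in pool 2 of each group; 9.76% of all genes did.

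Vegfb, a ligand of Flt1, was likewise detected in every pool. It gave 6.43, 6.96 and 7.03 in osteoblasts and 7.17, 7.34 and 6.66 in cementoblasts. The groups overlapped, and the difference was 0.25 (95% interval -0.43 to 0.93), or -0.17 with 75th percentile scaling. It was 0.06 without osteoblast pool 1, 0.11 and 0.45 without cementoblast pools 2 and 3, and -0.15 with cementoblast pool 3 alone. Vegfc was detected in 4 of 6 pools, the same 4 as Angpt1. Its values were 4.22, 5.29 and 5.40 in osteoblast pools 1, 2 and 3, then 5.99, 6.51 and 4.28 in cementoblast pools 1, 2 and 3. The highest were cementoblast pools 1 and 2 and the groups overlapped. Its difference of 0.62 (95% interval -0.76 to 2.00) became 1.33 without cementoblast pool 3, 0.24 without osteoblast pool 1 and 0.16 without cementoblast pool 2. Cementoblast pool 3 alone gave -0.86.

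Esm1, also called endocan, is a secreted proteoglycan known from endothelial tip cells. It was detected in the 3 osteoblast pools, at 5.82, 7.63 and 8.40, and in no cementoblast pool, where it stood at 4.32, 4.47 and 4.16. The groups did not overlap, although the osteoblast pools were far apart, with a mean of 7.28 ± 1.33 (SD, n = 3). Set against the lowest detected signals, the cementoblast mean was at least 5.71-fold under the osteoblast mean. That bound holds for these means and this processing only. It leaves out the spread between osteoblast pools, and the 95% interval of the measured fold begins at 3.00. The measured cementoblast mean was 4.32. Esm1 entered the test through the osteoblast pools alone, so it had to differ. Its difference of -2.96 (95% interval -4.34 to -1.59) was -1.33 without background correction, -1.78 with the submitters' values and -1.86 without osteoblast pool 3.

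**Figure D2:**
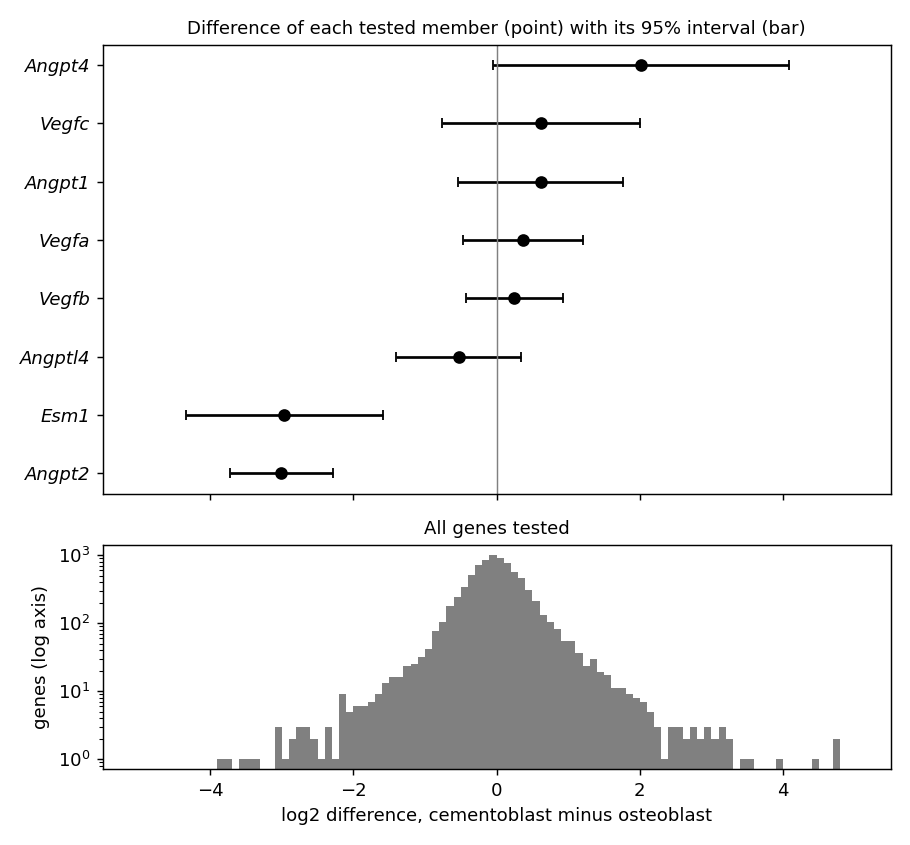
Upper panel: log2 difference, cementoblast minus osteoblast (x axis), of the 8 tested members, with the 95% interval as a bar. Lower panel: the same quantity for all 8111 genes as a histogram with a log axis for the number of genes. The intervals of Angpt2 and Esm1 lie below 0 and those of the other 6 include 0. The members were picked on this difference, so the intervals are a description and no test. Esm1 was detected in osteoblast pools alone and had to differ.

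Upstream sequences are shown for Angpt4, Vegfc and Esm1, whose values spread widely over the pools and which RefSeq's promoter table holds (GRCm38.p6). Each is the 250 bases before the gene's start, 5′ to 3′, all on the plus strand: Angpt4 at chr2:151910957-151911206, Vegfc at chr8:54077282-54077531 and Esm1 at chr13:113209409-113209658. Capitals mark matches, on either strand, to the TATA box TATAAA, the hypoxia response core ACGTG and the Runx core TGTGGT.
Angpt4: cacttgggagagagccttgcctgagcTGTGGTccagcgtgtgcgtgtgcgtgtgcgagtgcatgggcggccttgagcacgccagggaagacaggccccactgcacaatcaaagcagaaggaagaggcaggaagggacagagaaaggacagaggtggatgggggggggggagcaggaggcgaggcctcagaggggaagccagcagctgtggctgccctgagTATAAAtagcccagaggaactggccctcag
Vegfc: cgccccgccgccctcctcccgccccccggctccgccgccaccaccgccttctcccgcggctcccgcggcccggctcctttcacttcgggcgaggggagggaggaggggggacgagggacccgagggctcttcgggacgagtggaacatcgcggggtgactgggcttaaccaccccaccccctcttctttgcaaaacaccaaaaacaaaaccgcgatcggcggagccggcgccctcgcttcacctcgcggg
Esm1: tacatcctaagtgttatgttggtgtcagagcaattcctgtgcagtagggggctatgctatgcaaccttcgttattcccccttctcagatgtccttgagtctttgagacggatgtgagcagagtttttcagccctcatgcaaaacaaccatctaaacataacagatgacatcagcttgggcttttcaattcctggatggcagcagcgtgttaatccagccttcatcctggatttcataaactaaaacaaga
The Angpt4 window held TATAAA and TGTGGT once each, and the windows of Vegfc and Esm1 held none of the 3 motifs. Of all 32851 windows of this length, 12.4% held TATAAA, 16.6% ACGTG and 14.0% TGTGGT. G and C made up 62.4% of the Angpt4 window, 71.6% of that of Vegfc and 44.0% of that of Esm1, against a median of 52.4%.

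Among 42 tested genes on lists of the pathway, 0 passed the test over all genes (limma) and 9 had an unadjusted p under 0.05, as did 6.92% of all genes. Of 6 tested receptor genes 4 lay above 0, with a median difference of 0.59, and that median was 1.11 without cementoblast pool 3 and -0.80 with it alone. Over all genes the median was -0.02 and 47.5% lay above 0. Tek, the gene of Tie2, gave 4.25, 4.91 and 5.22 in osteoblast pools and 6.72, 6.38 and 4.20 in cementoblast pools. Flt1, the receptor of Vegfa and Vegfb, gave 4.22, 5.13 and 6.37 in osteoblasts, then 7.65, 7.09 and 4.14 in cementoblasts. Tek differed by 0.97 (1.82 without cementoblast pool 3 and -0.74 with it alone) and Flt1 by 1.05 (2.18 without cementoblast pool 3 and -1.29 with it alone). Both were undetected in osteoblast pool 1, which had the highest detection limit, and in cementoblast pool 3, as were Angpt1 and Vegfc. Tie1, the partner of Tie2, differed by 0.42 (limma adjusted p = 0.885; 0.67 without cementoblast pool 3 and 0.05 with it alone) and was detected in 3 pools. Ptprb, the phosphatase that restrains Tie2, differed by 0.76 (1.55 without cementoblast pool 3 and -0.87 with it alone) and was picked for naming after its values were seen. The co-receptors Nrp1 and Nrp2 differed by -1.12 (limma adjusted p = 0.842) and -0.37 (limma adjusted p = 0.899), and another Nrp1 probe by -0.92. The Nrp1 difference was -0.36 without cementoblast pool 3 and -2.73 with it alone. Kdr and Flt4 were below detection in all 6 pools.

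Most endothelial markers, like Angpt1, Angpt4, Vegfc, Tek and Flt1, were highest in cementoblast pools 1 and 2 and low in cementoblast pool 3; within the osteoblasts Angpt4 was flat where their mean was not. Their mean log2 signal was 4.78, 5.15 and 5.74 for the osteoblast pools, against 6.64, 6.52 and 4.58 for the cementoblast pools. All 11 tested ones lay above 0, with a median difference of 0.90, and 0 passed (limma; 0 at an unadjusted p under 0.05). Without cementoblast pool 3 that median was 1.93 and 3 of the 11 (Cdh5, Emcn and Vwf) passed (limma), as did 166 of all 8111 genes. With that pool alone the median lay below 0. Cementoblast pool 3 was singled out partly by these same markers, so nothing is read from these shifts. Esam, Vwf and Egfl7 were below detection in osteoblast pool 1 and cementoblast pool 3, Cdh5 in osteoblast pool 2 as well, and Pecam1 and Emcn in cementoblast pool 3. Eng, detected in all 6 pools, differed by 0.14 (0.22 without cementoblast pool 3 and -0.03 with it alone). Ramp2, detected in cementoblast pool 3 and at 7.56 in osteoblast pool 3, differed by 0.26. Its difference was 0.96 without cementoblast pool 3 and -1.13 with it alone. Sox18 differed by 0.05 (0.17 without cementoblast pool 3 and -0.21 with it alone). Sox17 and Erg were below detection in all 6 pools. The oral epithelium list averaged 7.36 and 7.22 in cementoblast pools 1 and 2, and 4.29 in pool 3; the osteoblast pools lay between 4.22 and 4.37. The pericyte and smooth muscle list averaged 6.08, 6.17 and 5.19 in the cementoblast pools and 5.93 to 6.26 in the osteoblast pools. The part of such cells in the levels of Angpt1, Angpt4 and Vegfc was not tested, and in bulk samples fewer cells of a type and less RNA per cell cannot be told apart. Angpt2 was highest in osteoblast pool 1, with 4 of 13 endothelial genes detected. Esm1 was undetected in cementoblast pool 1, with 11 detected, but among the osteoblast pools it was lowest in pool 1 and highest in pool 3, as was the endothelial mean. The part of endothelial cells in these levels was not tested.

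**Figure D3:**
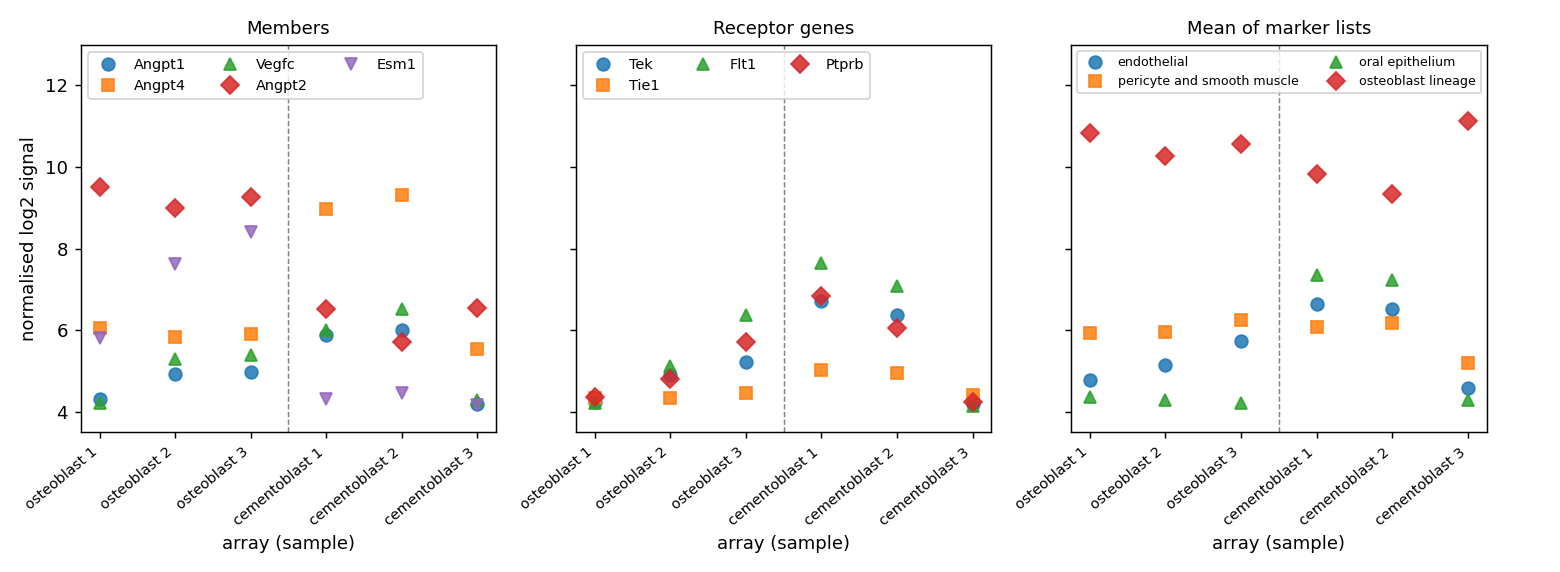
Normalised log2 signal (y axis) in each pool (x axis) for 5 members, for the receptor genes Tek, Tie1, Flt1 and Ptprb, and for the mean of 4 marker lists; each point is 1 array. Angpt1, Angpt4, Vegfc, Tek, Flt1 and the endothelial mean are highest in cementoblast pools 1 and 2, while Angpt2 and Esm1 are highest in osteoblast pools.

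Angptl1, an angiopoietin-like gene outside the set, gave 5.38, 6.13 and 8.44 in osteoblasts and 9.38, 9.45 and 10.33 in cementoblasts. Its groups did not overlap, and the difference of 3.07 (SE 0.73) did not pass (limma adjusted p = 0.210), though it did without osteoblast pool 3. Pgf, placental growth factor, was below detection in all 6 pools. Vegfd, a lymphatic growth factor, was detected in osteoblast pools 2 and 3 alone, at 4.67 and 4.66. Angptl6 was not analysed here.

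Of 11 tested genes for other angiogenic factors, 9 lay above 0, with a median difference of 0.18. Mdk, the growth factor midkine, differed by 0.99 (limma adjusted p = 0.713), and its other probes by 0.96 and -0.02. The growth factor genes Fgf1 and Pdgfa differed by 0.99 and -0.77, and the matrix-associated Ccn1 by -0.42. Cementoblast pools 1, 2 and 3 gave 5.40, 4.82 and 6.61 for Fgf1, against 4.56 to 4.69 in osteoblasts. For Pdgfa they gave 7.52, 7.94 and 9.10, against 8.75 to 9.22, so the groups overlapped. Of 6 tested inhibitors of vessel growth, 2 lay above 0, with a median of -0.23. Col18a1, whose collagen yields endostatin, gave 4.85, 5.28 and 6.33 in osteoblasts and 8.97, 8.32 and 7.87 in cementoblasts, without overlap. Its difference of 2.90 (SE 0.45; limma adjusted p = 0.0570) passed with a trend and robust variance (limma adjusted p = 0.0301), with the title number as a random block (limma adjusted p = 0.0342) and without cementoblast pool 3 (limma adjusted p = 0.0237). In the other alternatives that gave a value it did not pass (limma adjusted p from 0.0605 to 0.443), and the difference was 1.68 without background correction. The thrombospondin genes Thbs2 and Thbs1 differed by -1.74 and -0.41, and the metalloproteinase inhibitor Timp3 by 1.39, its other probe by 0.77.

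Vegfa and Angptl4 are known targets of the hypoxia-inducible factors. Of 11 other tested targets, 7 lay above 0, with a median difference of 0.12, and 4 had an unadjusted p under 0.05. These were the glucose transporter gene Slc2a1 (1.60), the glycolytic enzyme gene Pfkl (0.64) and the prolyl hydroxylase genes P4ha1 (-1.13) and P4ha2 (-1.56). They lay on both sides of 0 and did not pass (limma adjusted p from 0.318 to 0.721). The groups overlapped for Slc2a1 and P4ha2 but not for Pfkl and P4ha1. Among the regulators, Hif1a, the oxygen-sensitive subunit, differed by 0.73 and its partner Arnt by -0.28. The related Epas1 differed by 0.09 and Vhl, which targets the subunits for breakdown, by 0.07. Hif1a was undetected in osteoblast pool 1 and its groups overlapped. Arnt was undetected in that pool and in cementoblast pools 1 and 2. In cementoblast pool 3 Epas1 and Vhl were undetected, and Epas1 in osteoblast pool 1 as well. Angptl4 is also a PPAR target, and the 3 tested genes of that list, Pdk4, Plin2 and Acadm, differed by -0.61, 0.33 and 0.18.

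The tested genes most like Angpt2 by Pearson correlation over the 6 arrays were Mipep (0.996), Cst3 (0.994), Mospd1 (0.990), Ociad1 (0.988) and Tmem25 (0.983). These points share arrays and normalization, and 32 genes had a correlation over 0.95. The 5 genes differed between the groups by -1.30 (Cst3, the gene of cystatin C) to -0.31 (Ociad1). Angpt2 itself parts the groups, so genes picked for likeness to it had to differ in the same direction. Tmem25 was undetected in all cementoblast pools, and the other 4 were detected in every pool.

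**Figure D4:**
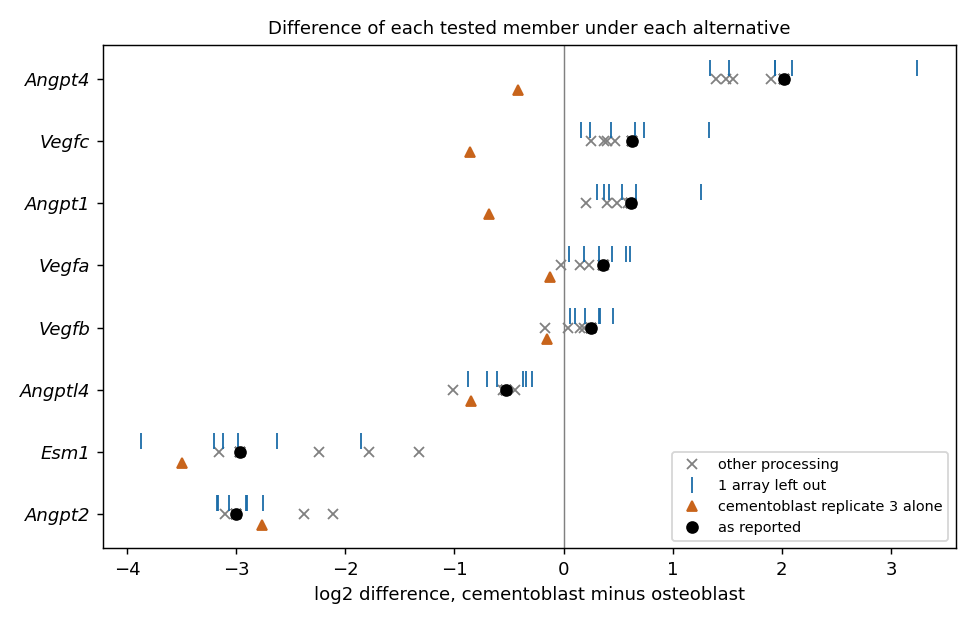
Log2 difference, cementoblast minus osteoblast (x axis), of each tested member as reported (dot), under other processing (cross), with 1 array left out (tick) and with cementoblast pool 3 alone against the osteoblasts (triangle). Angpt2, Esm1 and Angptl4 stay below 0, and the triangles of Angpt1, Angpt4, Vegfa, Vegfb and Vegfc lie below 0 although their reported values lie above it.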

How the data were processed

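Bead arrays of 6 pooled samples were analysed, 3 in each group. In the deposited non-normalized table each probe has an intensity (linear bead signal) and next to it, per the file headers, the p-value of detection. A second deposited table has intensity values as normalized by the submitters, whose processing notes name lumi without a version. Pools are the replicates. Columns were assigned by title, and those of replicate 3 by tissue code with the description's replicate number.

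limma 3.58.1 (R 4.3.3) corrected background and quantile-normalized with neqc (offset 16, log2). Probes detected in at least 3 of 6 arrays were kept, with the brightest standing for a gene (1893 genes had others). Platform annotation named 23978 probes and left 1719 unnamed. Group differences came from limma's moderated fit, adjusted by Benjamini-Hochberg across the 8111 genes (0.05). An "at least" fold takes, for the undetected group, the larger of the array's lowest detected and the measured signal. The fit was tested on simulated data. Other settings tried were uncorrected background, the submitters' own normalization, 75th percentile scaling, other filters, probe means, another variance model, 2 blocks and each array left out; cementoblast pool 3 alone was added after seeing the data. Members and lists were chosen with earlier results of these data known. Named are all members, Tek, Tie1, Kdr, Flt1, Flt4, Nrp1, Nrp2, Pgf, Vegfd, Angptl1 and Angptl6, for each pathway list the genes past the test or else up to 4 with the smallest p, and the 5 genes most like Angpt2. The number of arrays limits precision.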

Additional observations from a re-analysis of the deposited data

How the results depend on the processing

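Angpt2 kept its sign in all 16 alternatives. Its difference was -2.38 with the submitters' values, -2.11 when background was left uncorrected, and -3.18 to -2.75 with 1 array left out. It was among the genes past the threshold in 8 of the 16, and not with no filter on detection, with the replicate block, with cementoblast pool 3 alone or with 1 array other than that one left out. Esm1 (15 alternatives) and Angptl4 (16) kept their sign. Angpt1, Angpt4 and Vegfc turned with cementoblast pool 3 alone, and Vegfa and Vegfb there and under 75th percentile scaling; the cause was not tested. Asking for detection on all 6 arrays gives no value for Angpt1, Vegfc and Esm1.

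Genes past the test numbered 26 (12 higher, 14 lower), and 24 (11 higher, 13 lower) with probe means. The count was 13 (5 higher, 8 lower) with the submitters' values, 16 (5 higher, 11 lower) when background was left uncorrected, 2 (0 higher, 2 lower) under 75th percentile scaling, 8 (4 higher, 4 lower) with no filter, 6 (1 higher, 5 lower) with detection on all 6 arrays, 40 (17 higher, 23 lower) with trend and robust variance, 74 (38 higher, 36 lower) with the title number as a random block and 7 (6 higher, 1 lower) with cementoblast pool 3 alone. Leaving out 1 array gave 0 (without cementoblast pool 2; limma, 391 at an unadjusted p under 0.05) to 166 (without cementoblast pool 3), and 3, 4, 10 and 13 without osteoblast pools 2 and 3, cementoblast pool 1 and osteoblast pool 1. The pathway count of 0 (limma; 9 at an unadjusted p under 0.05) became 1 with trend and robust variance and with the random block, and 0 to 1 with 1 array left out. With the replicate block the count of genes was 0 (limma; 568 at an unadjusted p under 0.05). Pairs of arrays with the same replicate number in their descriptions deviated from their group means with correlations of -0.34, 0.35 and 0.0883. With 3 pools per group such correlations are tied to one another and cannot decide whether pools are paired. The labels name no pairing, and the replicate numbers were not taken as one. The last 2 of these pairs also share a title number, for which the random block estimated a correlation of 0.35, and cementoblast pool 1 correlated best with osteoblast pool 2. Signals near the lowest detected limit what can be said of Angpt1, Vegfc, Angptl7 and Esm1.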

Other observations

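Pool 2 of each group has the title number 28 and an age of 5 to 6 weeks. Besides Vegfa and Angptl4, 3 of 11 tested hypoxia targets were highest in pool 2 of both groups, namely Slc2a1, the hexokinase gene Hk2 and the histone demethylase gene Kdm3a, where 9.76% of all genes were. For Kdm3a this held for the brightest probe only. A dimmer Kdm3a probe gave 6.53, 6.24 and 6.13 in osteoblast pools 1, 2 and 3 and 5.67, 6.87 and 6.38 in the cementoblast pools. A further Kdm3a probe was lowest in pool 2 of both groups, at 6.12 and 5.53. Hk2 gave 8.55, 10.41 and 7.91 in osteoblast pools 1, 2 and 3 and 8.88, 10.57 and 6.55 in the cementoblast pools. Slc2a1 gave 5.91, 6.67 and 5.94 in osteoblasts, then 7.76, 8.95 and 6.61 in cementoblasts. This was noticed in the values, Hk2 and Kdm3a were named after they were seen, and no test was made.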
